A study of Homo sapiens with 6 samples.

Results

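The regions described here are USP39 binding sites that lie close to the 3′ ends of protein-coding genes in HEK293T cells, an established human embryonic kidney cell line. They were taken from 1 merged list of 34781 sites, each 5 nt wide. A site was included when its central base lay within the last 2000 nt of a nuclear protein-coding gene that spans more than 5000 nt and holds 3 or more sites. Gene spans were those of RefSeq (GRCh38.p14), and each gene was read in the direction of the strand that carried most of its sites. This gave 5472 end sites, which is 15.7% of the list. They lay in 1350 of 2111 genes that met the length and site limits (64.0%), and those 2111 genes held 26034 sites in all.

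USP39-bound RNA was recovered by iCLIP2, in which UV light of 254 nm joins proteins to the RNA they touch and the joined positions are read by sequencing. The cells were wild type and received no treatment other than the light, and the antibody was directed against USP39 itself. From each of 3 replicates a low and a high membrane region was cut, giving 6 libraries. The merged list carries no value per library, so no site has a replicate error, its read depth is unknown, and the low and high regions were not compared. No test of a difference was made, for the same reason. A control without UV light was not used here, and RNA abundance was not measured, so no count is corrected for background or for expression. The intervals given are 95% Wilson intervals over sites and cover counting error only. They treat sites as independent, which sites of the same gene need not be, so they may be too narrow.

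Splicing needs USP39, which sits in the tri-snRNP, the particle of U4, U6 and U5 snRNAs that enters the spliceosome ahead of its activation. The end of a protein-coding gene normally carries the last exon, with the stop codon, most of the 3′ untranslated region and, close to its last base, the signal at which the transcript is cleaved and polyadenylated. Introns, the stretches that the spliceosome removes, make up most of the rest of a long gene. Exons were not known here, so an end site could not be assigned to coding sequence, untranslated region or intron.

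The sequence under an end site could be read only where the site also lay in a RefSeq promoter window (GRCh38.p14, 300 bases around the start of another gene). This was the case for 15 of the 5472 end sites, in 11 genes. The examples below were chosen after the sequences were seen, to show the U-rich sites that form the larger group and the G-rich sites that depart from it. Each is 25 nt of the site's own strand written as DNA from 5′ to 3′, with the 5 nt binding site in capitals.
MCL1 (chr1:150574665-150574689, minus strand): aacagctgtaCTTTTgatagctgtg
HOXB6 (chr17:48595870-48595894, minus strand): ttttattaatTTTCTatgtgttgtg
HOXB6 (chr17:48595880-48595904, minus strand): caaagttctaTTTTAttaattttct
PRC1 (chr15:90966358-90966382, minus strand): ttgggagtctGTTTGttccaatggg
DPAGT1 (chr11:119095417-119095441, minus strand): tgttctagtgTTTGAgccgtcgtgc
PPAN (chr19:10111667-10111691, plus strand): ggggaggggcTGGGGaactgggtag
SYMPK (chr19:45815508-45815532, minus strand): acagggactcGGGGCtgggggacgg

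Uridines, written T, made up 57.3% of the bases within these 15 sites and 26.7% of the 20 flanking bases. In 11 of the 15 sites at least 3 of the 5 bases were T. The MCL1 site, in the gene of an anti-apoptotic BCL2 relative, lay 119 nt from the gene end, and the HOXB6 sites, in a homeobox gene, lay 131 and 141 nt from it. The G-rich sites were those of SYMPK, the scaffold protein of the 3′ end processing machinery, at 110 nt from the end, and of PPAN, a ribosome biogenesis gene, at 333 and 325 nt. The same reading was possible for 356 sites in the first 2000 nt of the same 2111 genes, of which 49.8% of the bases were T against 23.4% in the flanks, and for 523 other sites of the list, with 47.4% against 25.8%. Uridine was thus more frequent within the site than beside it at gene ends, at gene starts and elsewhere. With 15 sequences, some of them overlapping as in HOXB6, a difference between these sets was not shown. Whether the UV step itself favours uridine was not tested.

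The position of the polyadenylation signal could be checked at a few gene ends. In 17 genes the last 50 nt lay wholly in a promoter window of another gene, leaving out genes read against a known RefSeq strand. Genes for which no strand was given were kept, so their direction rests on their sites alone. The hexamers AATAAA or ATTAAA, searched on the gene's own strand, were present in 12 of these 17 (70.6%). In the first 50 nt of all RefSeq promoter windows, read in the direction of their gene, 3.87% held either hexamer. An end site was present in 10 of the 12 genes with a hexamer, 44 sites in all, and in 1 of the 5 without. Of all 2111 genes 64.0% had an end site. With so few genes a link between hexamer and end sites was not tested. The genes with a hexamer and end sites included TPM3, a tropomyosin gene, and ATP6V0C, a subunit of the vacuolar proton pump, with 8 and 5 end sites. These matches describe letters in a window and do not show where transcripts ended in HEK293T cells.

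End sites made up 21.0% of the sites in the 2111 genes (interval 20.5% to 21.5%). The median distance of an end site from the last base of its gene was 853.5 nt, with quartiles of 417 and 1401 nt. The last 500 nt held 1625 sites, the next 500 nt 1500, and the following stretches of the same width 1224 and 1123. The count went on declining past the limit of the window, to 1039 between 2000 and 2499 nt and to 688 between 4500 and 4999 nt from the end. Just inside the limit, between 1900 and 1999 nt, lay 206 sites, and just outside it, between 2000 and 2099 nt, lay 220. The decline was gradual, with no step at 2000 nt.

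**Figure D1:**
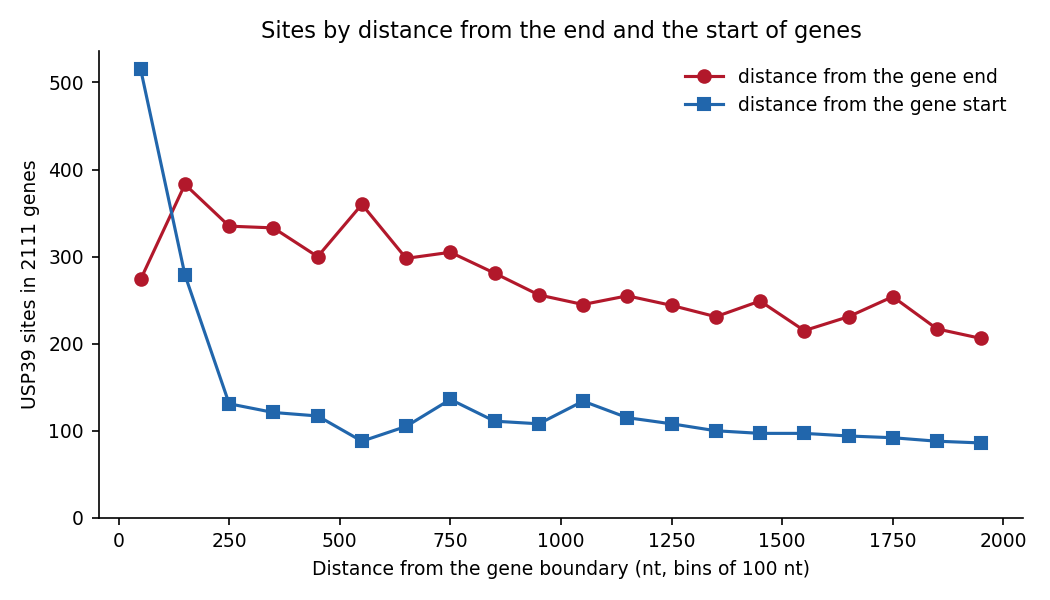
Number of USP39 sites in bins of 100 nt, by distance from the gene end (red circles) and from the gene start (blue squares), summed over the 2111 genes; the list is merged, so no error bars apply. The end profile is highest at 383 sites between 100 and 199 nt and falls slowly to 206 in the last bin shown, whereas the start profile is highest in its first bin, at 515 sites.

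The last bases of genes were almost free of sites. Only 2 sites had their central base in the last 30 nt and 28 in the last 50 nt, and the site nearest to an end lay 9 nt from it. Between 50 and 99 nt from the end there were 246 sites. In bins of 10 nt the count went from 0 at 20 to 29 nt, through 11 and 15, to 47 at 50 to 59 nt, and it reached 57 at 70 to 79 nt. Gene starts had no such gap. Their first 30 nt held 197 sites and their first 50 nt 295, against 220 between 50 and 99 nt. Whether sites can be detected equally well right next to a gene end and a gene start was not tested. Past the gene end few sites were found. In the 2000 nt after the 2111 ends, on the gene's strand and outside every gene of the table, there were 67 sites near 32 genes. Genes that follow closely take up part of that stretch. HNRNPU, which encodes a scaffold attachment factor of the hnRNP family, had 14 of the 67, between 47 and 1951 nt after its end, and 12 end sites before it. HOXD11, a homeobox gene, and WDR4, a subunit of a tRNA methyltransferase, had 7 each.

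**Figure D2:**
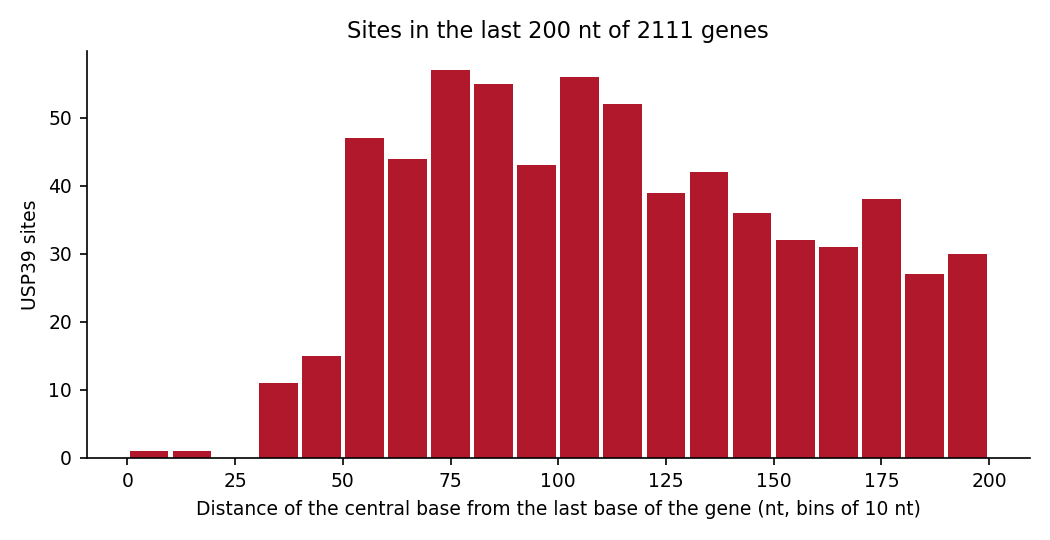
Number of USP39 sites in the last 200 nt of the 2111 genes, in bins of 10 nt by the distance of the central base from the last base of the gene. The 3 bins nearest to the end hold 1, 1 and 0 sites, and every bin from 50 to 199 nt holds between 27 and 57.

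The last 2000 nt carried more sites than windows of the same width elsewhere in the same genes. The density was 1.30 sites per kb in the last 2000 nt, 0.645 in the first 2000 nt, which held 2722 sites, and 0.483 in the 2000 nt around the midpoint, which held 2039. The end window thus held 2.01 times the sites of the start window and 2.68 times those of the middle window. Over the genes without their first and last 2000 nt the density was 0.171 per kb. That value pools all bases, so long genes weigh more in it than in the windows, which count 2000 nt of each gene. More end than middle sites were found in 1151 genes (54.5%) and fewer in 295, while 665 had equal numbers, 561 of these with 0 in both windows. More end than start sites were found in 1082 genes (51.3%) and fewer in 469. Both an end and a start site were present in 636 genes. In 63 genes shorter than 6000 nt the middle window overlaps the others. With genes longer than 10000 nt only, the end window held 3.55 times the sites of the middle window.

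The shape of the 2 boundaries differed. The first 500 nt of the genes held 1163 sites and the next 500 nt 548, so the sites at gene starts were crowded next to the start, and the count then stayed between 427 and 554 up to 4999 nt. The sites at gene ends were spread more evenly. Their spacing lay between that of start and middle sites. Of the end sites, 39.3% had another site on the same strand with its centre within 50 nt, against 41.2% of start sites and 37.8% of middle sites. The median distance to the nearest other site was 82 nt for end sites, 78 nt for start sites and 103 nt for middle sites. The middle sites lie in a smaller number of genes (677, against 963 for start and 1350 for end sites).

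Gene length went with the density at all 3 places. In the 293 genes of up to 10000 nt the end window held 1.94 sites per kb and the middle window 1.40. In the 473 genes over 10000 and up to 20000 nt these values were 1.55 and 0.714, and in the 702 genes over 20000 and up to 50000 nt 1.27 and 0.300. In the 378 genes over 50000 and up to 100000 nt they were 0.999 and 0.136, and in the 265 genes over 100000 nt 0.623 and 0.0396. The end window thus held more sites than the middle in each of the 5 length classes, and both densities were lower in longer genes. The share of genes with an end site was 80.2% in the shortest class and 45.7% in the longest.

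**Figure D3:**
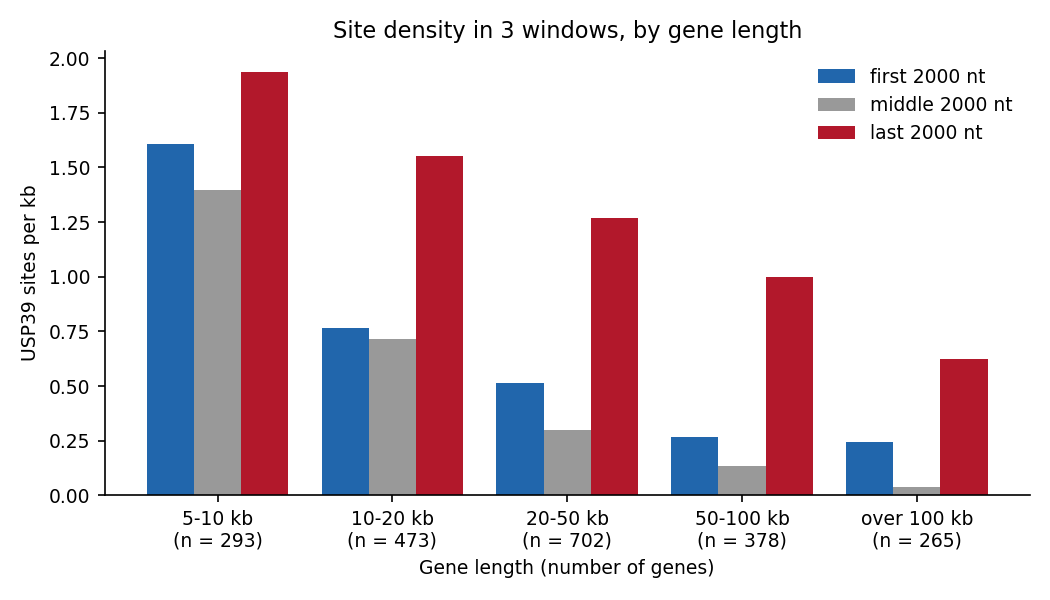
USP39 sites per kb in the first (blue), middle (grey) and last (red) 2000 nt of genes in 5 classes of gene length, with the number of genes in each class; bars start at 0 and have no error bars because the list is merged. The red bar is the tallest in every class, from 1.94 sites per kb in the shortest genes to 0.623 in the longest.

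End sites were spread over many genes. Of the 1350 genes with an end site, 348 had 1, 277 had 2 and 206 had 3, and the median was 3. There were 388 genes with 5 or more and 121 with 10 or more. The 20 genes with the most held 428 end sites (7.82% of them), and 260 genes together held 50% of all end sites. At least 50% of a gene's sites lay at its end in 430 of the 2111 genes (20.4%), and in 53 genes every site did, ZNF589 having the most sites among these, with 8.

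The genes with the most end sites encode an RNA helicase and a translation factor. The helicase gene DDX17, on chromosome 22, came first, with 30 of its 163 sites in the window from 38483438 to 38485437. They began 34 nt from the gene end and reached 1984 nt, with 4 of them in the last 500 nt. EEF2, the translocation factor of protein synthesis, had 28 of 73 sites in the window from 3976056 to 3978055 on chromosome 19. Of these, 10 lay in the last 500 nt, and 6 followed each other at steps of at most 50 nt. No gene end had a longer run of this kind, and YWHAE, the gene of an adaptor protein that binds phosphorylated partners, had 1 of the same length. With sites within 50 nt joined, DDX17 had 16 end sites and still came first, while EEF2 had 13, fewer than TMBIM6 and TUBB with 15 each and several genes with 14. The widest gap between neighbouring end sites lay from 57 to 395 nt in DDX17 and from 689 to 1174 nt in EEF2.

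IRS4, whose protein passes on signals of insulin-type receptors, on chromosome X, and NONO, a paraspeckle protein gene on the same chromosome, had 26 end sites each. In IRS4 these were 14.4% of its 180 sites, and in NONO 49.1% of its 53. KHSRP, which encodes a splicing and mRNA decay regulator, had 22 of 56 sites at its end, 35 to 1924 nt from the last base. PTBP1, the polypyrimidine tract binding protein gene, had 21 of 60 sites there. EIF4A1, the RNA helicase of translation initiation, had 20 of 43, and SRRM2, a large protein of nuclear speckles, had 19 of 94. A similar number of end sites thus went with very different shares of the gene's own sites.

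Genes of membrane traffic and signalling were among the 20 as well. ARF1, a small GTPase of the Golgi, had 23 of 30 sites at its end, on chromosome 1 between 228097213 and 228099212. GNAS, the gene of the stimulatory G protein alpha subunit, had 22 of 49 and 0 in its first 2000 nt. RHOA, a small GTPase that controls the actin cytoskeleton, had 21 of 30 on chromosome 3, and all 21 lay between 35 and 1184 nt from the end, so that the outer part of its window was empty. TMBIM6, a membrane protein gene linked to cell survival, had 21 of 44. CANX, the lectin chaperone calnexin of the endoplasmic reticulum, showed the opposite arrangement to RHOA. Its 20 end sites, of 63 in all, lay between 770 and 1974 nt from the end, with 0 in the last 500 nt.

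The remaining 7 of the 20 genes had 18 or 19 end sites each. SCD, a fatty acid desaturase gene, LBR, the lamin B receptor gene, and TUBB, a beta tubulin gene, had 19 of 56, 19 of 41 and 19 of 30. OGT, the O-GlcNAc transferase, had 18 of 108, NUCKS1, a chromatin-associated protein gene, 18 of 84, and GANAB, a glucosidase subunit of the endoplasmic reticulum, 18 of 75. TRIM28, a corepressor gene, had 18 of 35, and MORF4L2, a chromatin protein gene with as many end sites, was placed after it by its lower total of 33. The ranking is by number and not by share. In DDX17, IRS4, OGT and SRRM2 the share at the end was 18.4%, 14.4%, 16.7% and 20.2%. These lie below the 21.0% over all sites of the 2111 genes, while the rest of the 20 lie above it. TUBB belongs to a family of closely similar copies, which can share reads, and how such reads were placed was not measured here. The nearest site to the end was within 132 nt in 17 of the 20 genes, the exceptions being LBR at 211 nt, NUCKS1 at 409 nt and CANX at 770 nt. The 20 genes were chosen by their number of sites in this window, so a site close to the end largely follows from the choice.

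**Figure D4:**
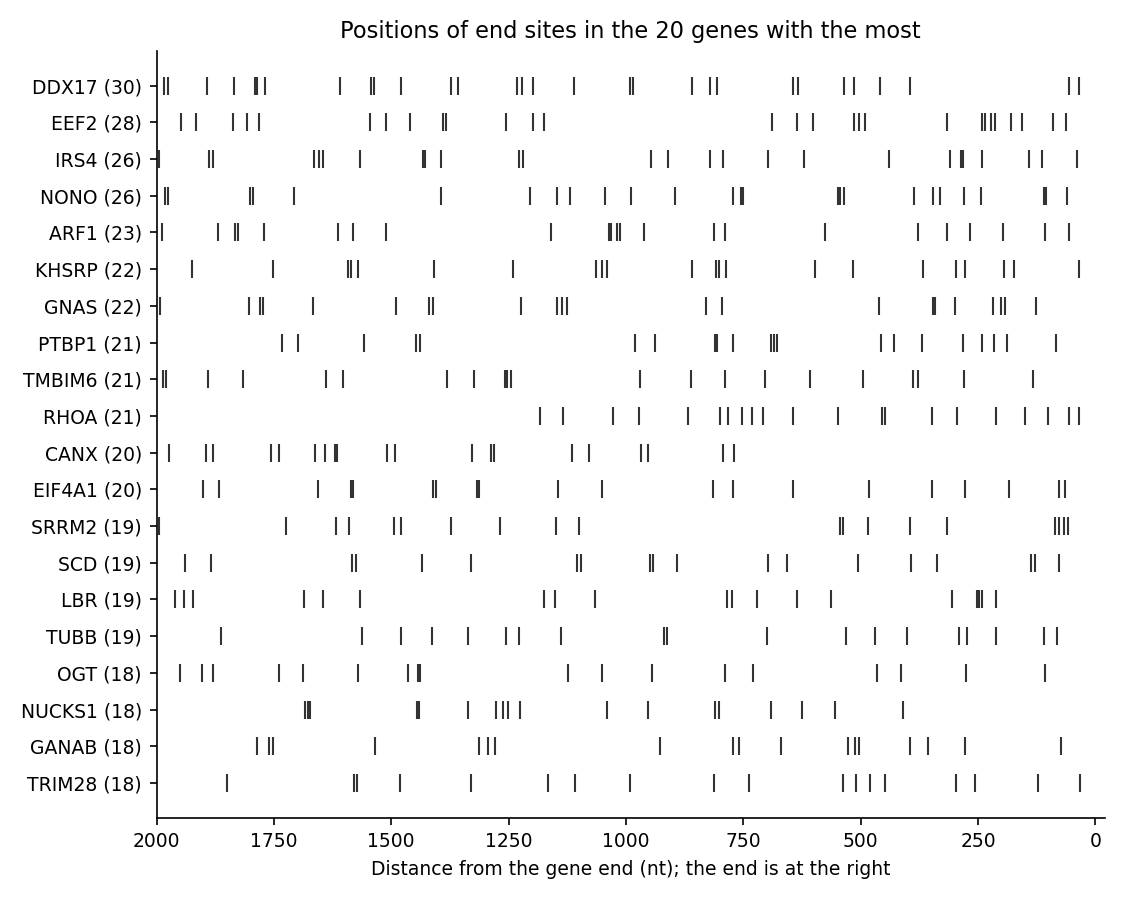
Positions of the end sites in the 20 genes with the most, 1 gene per line with its number of end sites in parentheses; each tick is a site, and the horizontal axis is the distance from the gene end in nt, with the end at the right. RHOA has no tick beyond 1184 nt and CANX none nearer than 770 nt, while DDX17 and EEF2 have ticks near both sides of the window.

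Among genes with 10 or more sites, the largest share at the end was that of CPSF7, a subunit of cleavage factor I of the 3′ end processing machinery, with 13 of 15 sites (86.7%). TMED2, a cargo receptor of early secretory traffic, followed with 10 of 12 (83.3%), then RAB1B, a GTPase of the same route, with 8 of 10, ARF1 with 76.7% and CERS2, a ceramide synthase gene, with 15 of 20. HDGF, HMGA1, PFAS and SRP9 had the same share as CERS2, with 15 of 20, 12 of 16, 9 of 12 and 9 of 12. USP39 itself had 2 of its 5 sites at its end, 273 and 520 nt from the last base.

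Other genes with many sites had few or 0 at the end. DYNC1H1, the heavy chain of cytoplasmic dynein, had 89 sites and 0 in the last 2000 nt, its last site lying 5810 nt from the gene end. DDX3X, an RNA helicase gene, had 68 sites and its last 14343 nt from the end. USP9X, a deubiquitinase gene, RBM39, a splicing factor gene, and SRSF1, an SR protein gene, had 66, 64 and 57 sites, with the last at 3431, 3103 and 3619 nt. HELLS, a chromatin remodeller gene, had 3 end sites of 157, and PRKDC, which encodes a kinase of DNA double-strand break repair, 6 of 150. HNRNPC, whose protein binds uridine tracts in nascent RNA, had 11 of 108. Of the 761 genes without an end site, 174 had 10 or more sites. In 359 of the 761 (47.2%) the last site lay within 5000 nt of the end. These genes had a median length of 39316 nt, against 25147 nt in genes with an end site. RefSeq spans run to the farthest annotated end of a gene, and which end the cells used was not measured.

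**Figure D5:**
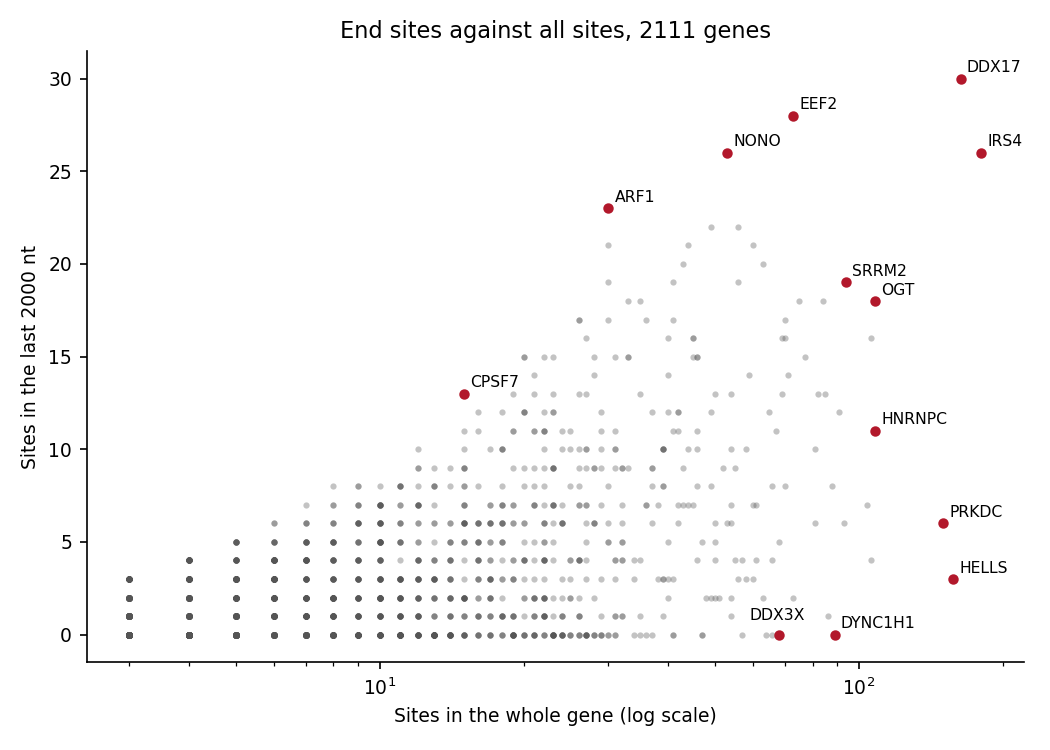
Sites in the last 2000 nt of a gene (vertical axis) against sites in the whole gene (horizontal axis, log scale), 1 point per gene for the 2111 genes, with 13 genes marked in red. Points near the horizontal axis at the right, such as DYNC1H1, DDX3X and HELLS, are genes with many sites and few or none at the end.

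Across all 2111 genes, the site nearest to the end lay at a median distance of 1019 nt (quartiles 278.5 and 3471 nt). In 420 genes (19.9%) it lay in the last 200 nt. The sites in the windows were almost all on the strand by which the gene was read, with 9 exceptions in 7 genes, among them POM121 and PTOV1 with 2 each. That strand was chosen as the one with most of the gene's sites, so this agreement largely follows from the rule. For 1785 genes the RefSeq promoter table gave a strand, and in 1772 of them (99.3%) it was the strand with most sites. The other 13 genes were read against their annotation. Only 3 of them held end sites, VPS9D1 with 17, MLLT10 with 1 and RGL4 with 1, and those 19 sites lie near the annotated start of the gene and not near its end. Of the end sites, 4834 lay in the span of a single gene, and 638 (11.7%) also lay in another, most often a lncRNA or a further protein-coding gene. In 1580 genes whose end window touched no other gene the density was 1.30 per kb, and in the other 531 it was 1.27 per kb.

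Groups of genes were described by how many of their members with 3 or more sites and more than 5000 nt had an end site, to be read against 64.0% of all 2111 genes, and by the median share of a gene's sites at its end, which was 16.7% over all. The share also went with gene length. Of the sites in genes of up to 10000 nt 33.7% lay at the end, against 11.5% in genes over 100000 nt. Having an end site also went with the number of sites in a gene. Of genes with 5 or more sites 69.9% had an end site. Genes without an end site had a median of 5 sites, against 7 over all. The lists were not matched for gene length or for number of sites, so the comparison with 64.0% favours lists rich in sites. Pooled over all sites of a list, the share at the end did not always go the same way as the median share. Against 21.0% over all, it was lower for tri-snRNP and LSm (17.6%), U1, U2 and Sm (15.0%) and chaperones (19.1%), whose medians were higher. It was higher for zinc finger genes (28.3%), solute carriers (23.9%) and translation factors (21.9%), whose medians were lower. Of members with equal numbers of end sites, those with more sites in all are named. The genes of protein folding in the endoplasmic reticulum had an end site in 18 of 21, with a median share of 33.3%. CANX led them with 20, before PDIA6 with 11 of 29 sites and SEC61A1 and P4HB with 10 each. PDIA6 and P4HB encode disulfide isomerases and SEC61A1 the channel through which proteins enter the endoplasmic reticulum. In the glycolysis list 7 of 8 had an end site, with a median share of 31.9%, ALDOA having 17 of 26, GPI 12 of 40, PKM 11 of 31 and ENO1 9 of 52, while PGK1 had 19 sites and 0 at the end. Cytosolic and mitochondrial chaperones had an end site in 17 of 19 and a median share of 22.7%, with 12 in HSP90AB1, 10 each in HSP90AA1 and HSPD1 and 7 in CCT3. The cytoskeleton list had 9 of 12 and a median share of 28.4%, with 7 each in VIM, TUBA1C and MYH9 after TUBB.

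Genes of RNA processing had median shares between 12.2% and 25%. The hnRNP genes had an end site in 18 of 21, with a median share of 15.9%, led by PTBP1 with 21, HNRNPH1 with 16 of 106, and HNRNPA2B1 and HNRNPK with 13 each. The SR protein genes had an end site in 6 of 10, with a median share of 12.2%, TRA2A having 10 of 39, SRSF11 8 of 88, SRSF4 8 of 21 and SRSF9 5 of 9. Besides SRSF1, the SR genes SRSF3, TRA2B and SRSF10 had 26, 14 and 13 sites and 0 at the end, the last sites lying at 2959, 2274 and 2544 nt. In the tri-snRNP and LSm list, the particle that holds USP39, 9 of 12 had an end site and the median share was 25%, with 10 of 81 in PRPF8, 6 of 10 in LSM4 and 2 of 21 in SNRNP200. The U1, U2 and Sm list had 10 of 17 and a median share of 20%, with 7 in U2AF2, 6 in SNRPB, 5 in SF3B6 and 4 of 50 in SNRNP70, while SF3B3 had 41 sites and SF3B1 24 with 0 at the end. The DEAD and DEAH box helicases had 12 of 18 and a median share of 12.7%, with 16 of 69 in DDX39B and 6 each in DDX5 and DDX21 after DDX17. The factors of 3′ end processing had 10 of 14 and a median share of 14.1%, and after CPSF7 the most were 4 of 55 in PABPC1 and 3 each in CPSF6, PAPOLA and SCAF8.

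The translation lists varied among their members. Translation factor genes had an end site in 19 of 26, with a median share of 13.9%. EIF2S3 and EIF4H had 15 each after EEF2 and EIF4A1, while EEF1A1 had 29 sites and 0 at the end, its last site lying 2310 nt from it. Genes of the large ribosomal subunit had an end site in 16 of 23 (median share 25%), with 15 each in RPL3 and RPL24, 11 in RPL5 and 10 in RPL6. Those of the small subunit had an end site in 7 of 14 (median share 5.56%), with 10 each in RPS4X and RPS3A and 7 in RPS9, while RPS24 had 23 sites and RPS3 19 with 0 at the end. Reads of ribosomal protein genes can be shared with their many pseudogenes, which was not measured here either. The nucleolar list had 11 of 15 (median share 20.5%), led by GNL3 with 10, NOP56 and RRP1B with 9 each and NCL with 8.

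In the other lists the share of genes with an end site lay between 57.1% and 73.3%. Proteasome genes had an end site in 13 of 20 (median share 31.0%), with 7 in PSME3, 4 in PSMD8, 3 in PSMA7 and 2 in PSMB1. Replication genes had 11 of 15 (median share 11.1%), with 8 in MCM4, 7 in CDT1 and 5 each in MCM7 and PCNA. Mitosis genes had 7 of 11 (median share 9.09%), with 5 in AURKB and 3 in TPX2. The ubiquitin-specific proteases had 8 of 11 (median share 14.3%), with 17 of 36 in USP22 and 3 each in USP1 and USP33. Solute carriers had 20 of 35 (median share 15.4%), with 12 each in SLC38A2 and SLC7A5, 11 in SLC16A1 and 9 in SLC7A1. Zinc finger genes had 13 of 22 (median share 16.1%), with 11 in ZNF664, 8 in ZNF589, 7 in ZNF460 and 6 in ZNF24. Most of these lists are short, and none of the shares was tested against the others.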

How the data were processed

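Per the submitters' processing notes, FastQC 0.11.9, STAR 2.7.3a, SAMtools 1.10, bedtools 2.29.2, UMI-tools 1.1.2 and the build GRCh38.p12 were used, without role or order. How sites were called and filtered, and which libraries were merged, is not given in the sources used here. Each deposited score is 0 and was not used. Read depth is unknown.

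The central base of a site decided its gene. Among overlapping genes, snRNA and snoRNA genes came first, then other small RNA, protein-coding, lncRNA and pseudogenes. Read-through and LOC genes gave way to others, and remaining ties went to the gene whose own sites lay on that strand. Protein-coding genes of up to 5000 nt (2546 sites in 416 genes) were left out. Distances are counted from the last base of the RefSeq span, at 0. Software was matplotlib 3.10.9, scipy 1.17.1, pandas 2.3.3, numpy 2.4.6 and Python 3.11.15, and the counting was tested on simulated data.

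The genes named are the 20 with the most end sites, the 5 with the largest share among genes with 10 or more sites, 5 with the most sites and the lowest share, USP39, and up to 4 members of each list; others were chosen after their values were seen. A few genes that this rule or the examples would name are not reported here. The members and lists were chosen with earlier results of these data known. The planned sequence counts around all end sites need a genome and were not made.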

Additional observations from a re-analysis of the deposited data

Results flagged for a closer look

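Genes with 1 or 2 sites stood outside the counts above. Read by the strand of their own sites, 1759 such genes longer than 5000 nt held 2341 sites, and 574 of these lay in the last 2000 nt (24.5%, 95% Wilson interval 22.8% to 26.3%). They were singled out only because the comparisons did not use them. Their share was not tested against that of the other genes.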

How the results depend on the processing

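The last 2000 nt held more sites than the middle and the first 2000 nt of the same genes with windows of 1000 nt, with sites within 50 nt joined, in genes that overlap no other, in genes with the strand of the promoter table and in genes longer than 10000 nt; the other alternatives gave no such ratio. The end sites numbered 3125 in the last 1000 nt, 1625 in the last 500 nt, and 2281 (23.0% of the sites of those genes) in genes that overlap no other; each count is lower because the window is narrower or fewer genes enter. In genes that overlap no other the median distance was 812 nt and the ratio of end to middle window 2.47. With windows of 1000 nt the ratio to the middle was 3.17 and the ratio to the start 1.83. With genes longer than 10000 nt, a limit added after the data were seen, these ratios were 3.55 and 2.44. With sites within 50 nt joined, 13 of the 20 genes with the most end sites remained among the 20, and DDX17 still came first, with 16, while EEF2 went from 28 to 13. The last places were tied at 12 sites and given by the total of joined sites, which left out RHOA, also with 12. Joining left 4214 end sites, and genes with the strand of the promoter table, also added then, gave 4638. No paired analysis was possible because the merged list has no value per replicate, and no replicate could be left out for the same reason.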
